A study of Mus musculus with 7 samples.

Results

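The genes described here are 10 members of the Krüppel-like factor (Klf) family, namely Klf2, Klf3, Klf4, Klf6, Klf9, Klf10, Klf11, Klf12, Klf13 and Klf15. They are matched by symbol in the gene table of a heart RNA sequencing study, a rule that uses no measured value although the set was put together with earlier results of these data known, and are 10 of the 14637 genes tested. Hearts of 4 non-transgenic (NTG) male mice were compared with hearts of 3 mNrf2-TG male mice, all on the C57BL/6J background. In mNrf2-TG mice the αMHC promoter, which is active in cardiomyocytes, drives a transgene of full-length mouse Nrf2, while RNA was taken from whole heart tissue, so that vessel, connective tissue and blood cells contribute to every value. The study asked how the cardiac transcriptome differs when Nrf2, a transcription factor of antioxidant defence, is raised in the heart without loss of its control by Keap1. Each mouse gave 1 library (NTG 1 to 4, mNrf2-TG 17 to 19), and the age was given as 6 to 7 months in the methods, as 7 to 8 months in the description of the data set and as 6 months in the mNrf2-TG labels.

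Krüppel-like factors are transcription factors with zinc fingers at the end of the protein that bind GC-rich and CACCC sequences, which they share with the related Sp factors. Klf2 and Klf4 are known from blood vessels, where they hold the endothelium in a quiet, anti-inflammatory state, and together with Klf6 they respond quickly to stimuli. Klf15 controls fat and amino acid metabolism and the daily rhythm of repolarization in cardiomyocytes and restrains their growth, and both Klf15 and Klf9 are induced by glucocorticoids. Klf3 and Klf12 repress transcription through the corepressor CtBP, whereas Klf9, Klf10, Klf11 and Klf13 recruit Sin3, and Klf10 and Klf11 are induced by transforming growth factor beta (TGF-beta).

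The library totals over the genes of the table lay between 6534684 and 8405857 counts. For Nfe2l2, the gene of Nrf2, the NTG hearts gave 729 to 1392 counts, whereas the transgenic hearts gave 10912 to 12839, transgene reads included, which fits the labels. Cardiomyocyte markers were abundant in every library. NTG 3 stood apart from the other NTG hearts. Its smooth muscle actin gene Acta2 had 7947 normalized counts against 1026 to 1886 in the other NTG hearts, while the other 7 smooth muscle and pericyte markers summed to 3457 against 2903 to 3116, and results that rest on it are given below with and without it. Levels are counts scaled by TMM to the mean library size, and a mean is followed by its SD over the 4 NTG or the 3 mNrf2-TG libraries. Log2FC is the log2 fold change of mNrf2-TG against NTG, SE is its standard error, and adjusted p-values are those of edgeR's quasi-likelihood test after Benjamini-Hochberg adjustment over all genes tested. A gene is called downregulated or upregulated at an adjusted p under 0.05.

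To show what lies at the start of these genes, promoters are printed for Klf9, Klf15, Klf6 and Klf4, which are 4 of the 5 members with the highest level per exon length, from 250 bases before to 5 bases after the start site in RefSeq (GRCm38.p6), read 5′ to 3′ along the gene. Capitals mark the antioxidant response element (ARE) core TGACNNNGC to which Nrf2 binds with small Maf proteins, the E-box CACGTG bound by clock and related factors, and the CCAAT box, each on either strand. The promoter of Klf2, the remaining one of these 5 members, is not printed. Its window of 300 bases held none of the motifs marked in capitals.
Klf9, chr19:23140976-23141230, plus strand: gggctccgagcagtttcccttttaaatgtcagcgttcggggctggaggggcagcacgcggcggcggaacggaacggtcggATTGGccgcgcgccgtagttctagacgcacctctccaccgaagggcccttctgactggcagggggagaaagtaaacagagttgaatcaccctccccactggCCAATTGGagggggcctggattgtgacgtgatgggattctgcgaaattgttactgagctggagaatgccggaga
Klf15, chr6:90462326-90462580, plus strand: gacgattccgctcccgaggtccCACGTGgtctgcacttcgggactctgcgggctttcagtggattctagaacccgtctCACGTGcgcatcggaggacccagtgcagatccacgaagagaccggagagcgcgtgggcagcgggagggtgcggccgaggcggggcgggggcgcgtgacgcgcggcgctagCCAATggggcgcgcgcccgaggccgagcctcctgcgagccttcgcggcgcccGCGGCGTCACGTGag
Klf6, chr13:5861239-5861493, plus strand: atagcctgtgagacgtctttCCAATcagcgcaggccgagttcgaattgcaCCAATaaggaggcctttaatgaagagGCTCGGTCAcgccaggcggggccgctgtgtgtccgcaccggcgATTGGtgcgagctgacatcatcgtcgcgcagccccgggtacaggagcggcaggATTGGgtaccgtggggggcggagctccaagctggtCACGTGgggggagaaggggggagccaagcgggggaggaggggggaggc
Klf4, chr4:55532471-55532725, minus strand: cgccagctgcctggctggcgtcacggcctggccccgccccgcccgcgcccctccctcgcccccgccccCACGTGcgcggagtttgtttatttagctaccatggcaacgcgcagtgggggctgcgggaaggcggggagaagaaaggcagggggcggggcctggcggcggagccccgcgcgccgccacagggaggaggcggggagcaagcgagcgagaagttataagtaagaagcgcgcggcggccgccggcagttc

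A match of letters in these windows is a description and not a shown binding site. Promoter windows of RefSeq genes were read for 9 of the 10 members, that of Klf10 was not analysed here, and motifs were searched on both strands in the whole window of 300 bases. The ARE core was found in 3 of the 9 (Klf3, Klf6 and Klf15) and in 12.4% of all 32851 promoters of the same length. An E-box was found in 4 of the 9 (Klf4, Klf6, Klf11 and Klf15) against 7.15% of all promoters, and in Klf15 it occurred 3 times. The E-box of Klf15 nearest the start site overlaps the ARE core printed there, and the same letters also hold the cyclic AMP response core TGACG. This core was found in 7 of the 9 and in 20.8% of all promoters. A CCAAT box was present in 5 of the 9 against 37.4%, and Klf6 had 4 of them. The GC box GGGCGG was found in 7 of the 9 against 35.7%, and the Klf-type sequence CCNCNCCC, which can overlap it, in 8 of the 9 against 49.5%. Klf9 held neither of these in its window. AGAACA, a hexamer of the glucocorticoid response element, was found in 0 of the 9 and in 19% of all promoters, and the TATA box TATAAA in 1 (Klf12) against 13.6%. The RefSeq start used for Klf12, at base 100149796 of chromosome 14, lies inside the annotated gene and not at its outer end. The windows of the members had 45.7% to 77.7% G and C, against a median of 52.7% over all promoters, and all but that of Klf12 lay above this median.

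The main comparison asked which Klf transcripts differed between mNrf2-TG and NTG hearts. Of the 10 members, 8 were downregulated in mNrf2-TG hearts, namely Klf2, Klf3, Klf4, Klf6, Klf9, Klf12, Klf13 and Klf15, against 8.73% of all genes tested that were downregulated. None was upregulated by edgeR (0 of 10, against 8.48% of all genes), by DESeq2 or by limma-voom, and at an unadjusted p under 0.05 the count was 1, Klf11. The Log2FC of the members ran from -1.0 to 0.36 with a median of -0.62, while the median over all genes was 0.0011. In 7 of the 10, all those downregulated except Klf13, every mNrf2-TG library lay below every NTG library, which held for 14.7% of all genes. The counts of the 10 members summed to 849, 899, 815 and 800 CPM of the library total in NTG 1 to 4 and to 505, 531 and 598 CPM in mNrf2-TG 17 to 19. In whole tissue, fewer cells of a type and less RNA per cell cannot be told apart.

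**Figure D1:**
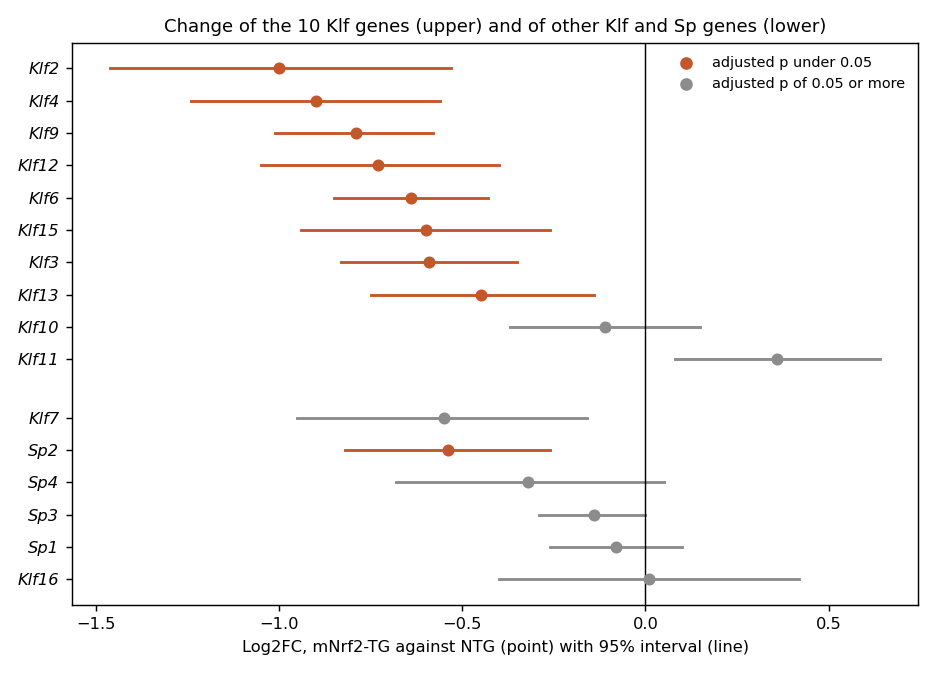
Points give the Log2FC of mNrf2-TG (3 libraries) against NTG (4 libraries) and lines its 95% interval, without adjustment for the number of genes, for the 10 Klf genes in the upper block and for 6 other Klf and Sp genes in the lower block. The 8 downregulated members lie between -1.0 and -0.45, Klf10 at -0.11 and Klf11 at 0.36, and in the lower block only Sp2 is coloured as downregulated.

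Klf2, which controls vessel tone and inflammation from the endothelium (Entrez gene 16598, chromosome 8, 72319033 to 72321656, plus strand, GRCm38), showed the largest decrease among the members. Its normalized counts were 585, 617, 331 and 639 in NTG 1 to 4 and 272, 233 and 310 in mNrf2-TG 17 to 19. The mNrf2-TG hearts were all below the NTG hearts, and NTG 3, the lowest NTG heart, lay only just above the highest of them. The mean fell from 543 ± 143 to 272 ± 38.5, a 2.00-fold lower level (Log2FC -1.0, SE 0.21, edgeR adjusted p = 0.0109). Without NTG 3 the Log2FC was -1.17 with an edgeR adjusted p of 6.96e-05.

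Klf4, a factor of endothelial and smooth muscle cells that is also part of the early response to stress (Entrez gene 16600, chromosome 4, 55527143 to 55532466, minus strand), came next. It had 770, 744, 540 and 907 normalized counts in the NTG hearts and 423, 366 and 401 in the mNrf2-TG hearts. Again the groups did not overlap and NTG 3 was the lowest NTG heart. The level was 740 ± 151 in NTG and 397 ± 28.9 in mNrf2-TG, or 1.87-fold lower (Log2FC -0.90, SE 0.15, edgeR adjusted p = 0.00449). With NTG 3 left out the Log2FC was -1.03 and the edgeR adjusted p 0.000106.

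Endothelial genes were examined beside Klf2 and Klf4 because several of them moved with the groups. Of 12 endothelial markers, 5 were downregulated and 1 upregulated, with a median Log2FC of -0.40. Pecam1, an adhesion protein of endothelial junctions, was lower (Log2FC -0.47, SE 0.068, edgeR adjusted p = 0.00214), as was the VEGF receptor gene Flt1 (Log2FC -0.59, SE 0.12, edgeR adjusted p = 0.00831). Kdr, the main signalling receptor for VEGF, was the marker that was higher, and this call was lost without NTG 1, NTG 2, NTG 4, mNrf2-TG 17 or mNrf2-TG 18, as well as with limma-voom. Summed over the 12 markers, the NTG hearts had 11573 to 12691 normalized counts and the mNrf2-TG hearts 10140 to 10359, and none of the 12 was near 0. The downregulated count was 3 without mNrf2-TG 17 or mNrf2-TG 18.

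Relative to this sum, Klf4 was 6.65%, 5.98%, 4.26% and 7.45% in NTG 1 to 4 and 4.17%, 3.53% and 3.93% in mNrf2-TG 17 to 19. The groups did not overlap, although the highest mNrf2-TG heart came close to NTG 3 (two-sided exact permutation test of the difference in means, p = 0.0571, with 0.0286 the smallest p that 35 splits allow). Klf2 was 5.05%, 4.96%, 2.61% and 5.25% of the sum in NTG and 2.68%, 2.25% and 3.04% in mNrf2-TG. Here NTG 3 lay among the mNrf2-TG hearts and the groups overlapped (exact permutation p = 0.114). Klf2 was also set against the 6 of the 12 markers that were not called. It was then 21.4%, 20.8%, 11.8% and 22.7% in NTG and 10.9%, 9.28% and 11.1% in mNrf2-TG, without overlap. This denominator was picked by the same comparison, so that the ratio mainly repeats the decrease of Klf2 and is given without a test. All of these ratios were chosen after the data had been seen, and the part of endothelial content in the decrease of Klf2 and Klf4 was not tested further.

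Of 13 genes known as endothelial targets of Klf2 and Klf4, 3 were downregulated and 0 upregulated (4 and 1 at an unadjusted p under 0.05, 0 upregulated by DESeq2 and 1 by limma-voom), with a median Log2FC of -0.25. The list was not split into genes that these factors activate and genes that they hold down. Its counts and median therefore do not show whether the targets followed the factors. S1pr1, the sphingosine-1-phosphate receptor that keeps vessels closed to leakage, fell from 1635 ± 211 to 699 ± 140 (Log2FC -1.23, SE 0.14, edgeR adjusted p = 0.000619). Nos3, the endothelial nitric oxide synthase gene, fell from 313 ± 28.7 to 228 ± 5.45 (Log2FC -0.46, SE 0.0928, edgeR adjusted p = 0.00956). Ramp2, part of the adrenomedullin receptor, had a Log2FC of -0.41 (edgeR adjusted p = 0.0366), but lost the call without NTG 2 or without any of the 3 mNrf2-TG libraries, where the adjusted p ranged from 0.063 to 0.131. Thbd, the thrombomodulin gene that Klf2 is known to activate, had a Log2FC of -0.23 (edgeR adjusted p = 0.0644, and 0.0358 without NTG 3). Without NTG 3, 4 of the 13 were downregulated and 1 upregulated.

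Klf9, a glucocorticoid-induced and clock-linked factor (Entrez gene 16601, chromosome 19, 23141226 to 23168134, plus strand), had the lowest adjusted p of the 10 members. Its normalized counts were 1673, 1812, 1740 and 1436 in NTG 1 to 4 and 869, 974 and 1040 in mNrf2-TG 17 to 19. The gap between the groups was wide compared with the spread within either of them. Klf9 fell from 1665 ± 163 to 961 ± 86.2, or 57.7% of the NTG level (Log2FC -0.79, SE 0.0971, edgeR adjusted p = 0.000866).

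Klf15, the family member best known for cardiac metabolism (Entrez gene 66277, chromosome 6, 90462576 to 90475238, plus strand), varied more among NTG hearts. It had 819, 1001, 948 and 611 normalized counts in NTG and 501, 596 and 578 in mNrf2-TG. The groups did not overlap, but NTG 4 lay just above the highest mNrf2-TG heart. The mean fell from 845 ± 173 to 559 ± 50.3 (Log2FC -0.60, SE 0.15, edgeR adjusted p = 0.0254). Leaving out NTG 1, NTG 2 or any of the 3 mNrf2-TG libraries moved the edgeR adjusted p to between 0.0559 and 0.101, with a Log2FC from -0.65 to -0.50, whereas without NTG 4 it was 0.00343.

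Klf13, a Sin3-recruiting repressor close in sequence to Klf9 (Entrez gene 50794, chromosome 7, 63886351 to 63938915, minus strand), showed the smallest called decrease. Its normalized counts were 479, 532, 601 and 504 in NTG and 335, 345 and 484 in mNrf2-TG. The value of mNrf2-TG 19 lay within the NTG range and the other mNrf2-TG hearts lay below it. The mean was 529 ± 52.7 in NTG and 388 ± 83.3 in mNrf2-TG (Log2FC -0.45, SE 0.14, edgeR adjusted p = 0.0484). This call was held only without mNrf2-TG 19 (0.00839) among the 7 fits with a library left out. The adjusted p was 0.0692, 0.103, 0.066 and 0.0698 without NTG 1 to 4, 0.167 without mNrf2-TG 17 and 0.156 without mNrf2-TG 18. Scaling by the library total, without TMM factors, gave 0.0651.

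Since Klf9 and Klf15 are glucocorticoid-induced, a list of glucocorticoid-responsive genes was read in the same fit, with the receptor gene Nr3c1 counted among them. Of 16 glucocorticoid-responsive genes, 11 were downregulated and 0 upregulated, with a median Log2FC of -0.96. At an unadjusted p under 0.05, 2 were higher, and DESeq2 and limma-voom called 0 higher. Cdkn1a, the cell cycle inhibitor p21, fell from 531 ± 73.1 to 151 ± 11.2 (Log2FC -1.81, SE 0.12, edgeR adjusted p = 1.74e-05). Errfi1, an inhibitor of EGF receptor signalling, fell from 508 ± 37.3 to 170 ± 29.3 (Log2FC -1.57, SE 0.12, edgeR adjusted p = 4.97e-05), and the NF-kappaB inhibitor gene Nfkbia had a Log2FC of -1.13 (SE 0.14, edgeR adjusted p = 0.00084). These 3 were named for having the smallest p of the list. In each of them every mNrf2-TG library lay below every NTG library, which held for 14.7% of all genes. Nr3c1, the gene of the glucocorticoid receptor, had a Log2FC of 0.25 (SE 0.0805, edgeR adjusted p = 0.0596). With robust dispersion 7 of the 16 were downregulated and Nr3c1 was upregulated (edgeR adjusted p = 0.0492), as it was with filterByExpr (0.0483).

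Clock genes were read beside Klf9 and Klf15, whose levels follow the time of day. Over all genes tested, 8.73% were downregulated and 8.48% upregulated, and 7309 of 14637 had a Log2FC below 0. Of 18 clock and clock output genes, 2 were downregulated and 0 upregulated, and all 18 had a Log2FC below 0, with a median of -0.35. None had an unadjusted p under 0.05 in the upward direction, and DESeq2 and limma-voom called 0 upregulated. Ciart, a repressor within the clock, fell from 126 ± 42.8 to 37.0 ± 8.84 (Log2FC -1.76, SE 0.29, edgeR adjusted p = 0.00425), and the period gene Per1, also on the glucocorticoid list, had a Log2FC of -0.87 (SE 0.18, edgeR adjusted p = 0.01). DESeq2 called 4 lower, and edgeR called 5 without NTG 3 and 6 without NTG 4. The time of day at which the hearts were taken was not given in the sources used here, and its part was not tested.

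Known targets of Klf15 moved in both directions. Of 14 measured genes of fat, amino acid and channel function that Klf15 is known to activate, 4 were downregulated and 1 upregulated, with a median Log2FC of -0.17. Kcnip2, the potassium channel subunit through which Klf15 acts on repolarization, rose from 719 ± 73.1 to 2047 ± 82.3 (Log2FC 1.51, SE 0.0854, edgeR adjusted p = 5.25e-06). The mitochondrial acylcarnitine carrier gene Slc25a20 fell from 1723 ± 96.4 to 1293 ± 57.1 (Log2FC -0.41, edgeR adjusted p = 0.00483), and the lipoprotein lipase gene Lpl had a Log2FC of -0.52 (SE 0.0945, edgeR adjusted p = 0.00636). Bcat2, which starts the breakdown of branched-chain amino acids, and Slc2a4, the insulin-sensitive glucose transporter gene, had a Log2FC of 0.04 and -0.16 (edgeR adjusted p = 0.842 and 0.235). The downregulated count was 2 without NTG 1, without NTG 2 and without mNrf2-TG 19.

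Of 8 genes tied to the restraint of cardiac growth by Klf15, 1 was upregulated and 1 downregulated. The list was not split into genes whose transcript Klf15 lowers and genes whose protein it inhibits. Its counts and median therefore do not show whether targets followed Klf15. Nppa, the atrial natriuretic peptide gene, rose from 1011 ± 357 to 2796 ± 966 (Log2FC 1.47, SE 0.28, edgeR adjusted p = 0.00727). Myocd, the coactivator myocardin, had a Log2FC of -0.68 (SE 0.17, edgeR adjusted p = 0.0246) with overlapping groups, and its adjusted p was 0.0545 to 0.0942 when NTG 1, NTG 2, NTG 4, mNrf2-TG 17 or mNrf2-TG 18 was left out and 0.0508 with robust dispersion. Without NTG 3, 4 of the 8 were upregulated and the median Log2FC moved from -0.03 to 0.40, and without NTG 4, 2 were upregulated. Myh7, the slow myosin heavy chain gene that rises in cardiac stress, had a Log2FC of 0.13 (edgeR adjusted p = 0.757). With a library left out, the Log2FC of Myh7 ranged from 0.00 to 0.40 (edgeR adjusted p from 0.0788 to 0.996).

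Klf6, an early response factor of injury (Entrez gene 23849, chromosome 13, 5861482 to 5870394, plus strand), was lower in every mNrf2-TG heart. The NTG hearts had 1122, 1095, 1215 and 991 normalized counts and the mNrf2-TG hearts 630, 731 and 763. The highest mNrf2-TG heart stayed well below the lowest NTG heart, and the spread was small in both groups. Klf6 fell from 1106 ± 92.2 to 708 ± 69.3, or 1.56-fold (Log2FC -0.64, SE 0.0936, edgeR adjusted p = 0.00217).

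Immediate-early genes, which like Klf2, Klf4 and Klf6 answer stimuli within minutes to hours, were largely lower where they were called. Of 22 such genes, among them Dusp1, which is also on the glucocorticoid list, 8 were downregulated and 0 upregulated, with a median Log2FC of -0.65. At an unadjusted p under 0.05, 1 was higher, and DESeq2 called 1 and limma-voom 0 upregulated. The orphan receptor gene Nr4a3 fell from 231 ± 54.3 to 50.5 ± 21.5 (Log2FC -2.21, SE 0.28, edgeR adjusted p = 0.000969). Zfp36, whose product destabilizes inflammatory mRNAs, fell from 503 ± 89.9 to 237 ± 21.4 (Log2FC -1.08, SE 0.14, edgeR adjusted p = 0.00122), and the small Maf gene Maff had a Log2FC of -1.40 (SE 0.24, edgeR adjusted p = 0.00452). Fos and Egr1, classical members of this group, had a Log2FC of -0.48 and 0.42 (edgeR adjusted p = 0.347 and 0.459). With a library left out, Fos ranged from -0.68 to -0.16 and Egr1 from -0.00 to 0.79, and neither was called. Without NTG 1, 5 of the 22 were downregulated, and without NTG 3, 10 were downregulated and 1 upregulated.

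**Figure D2:**
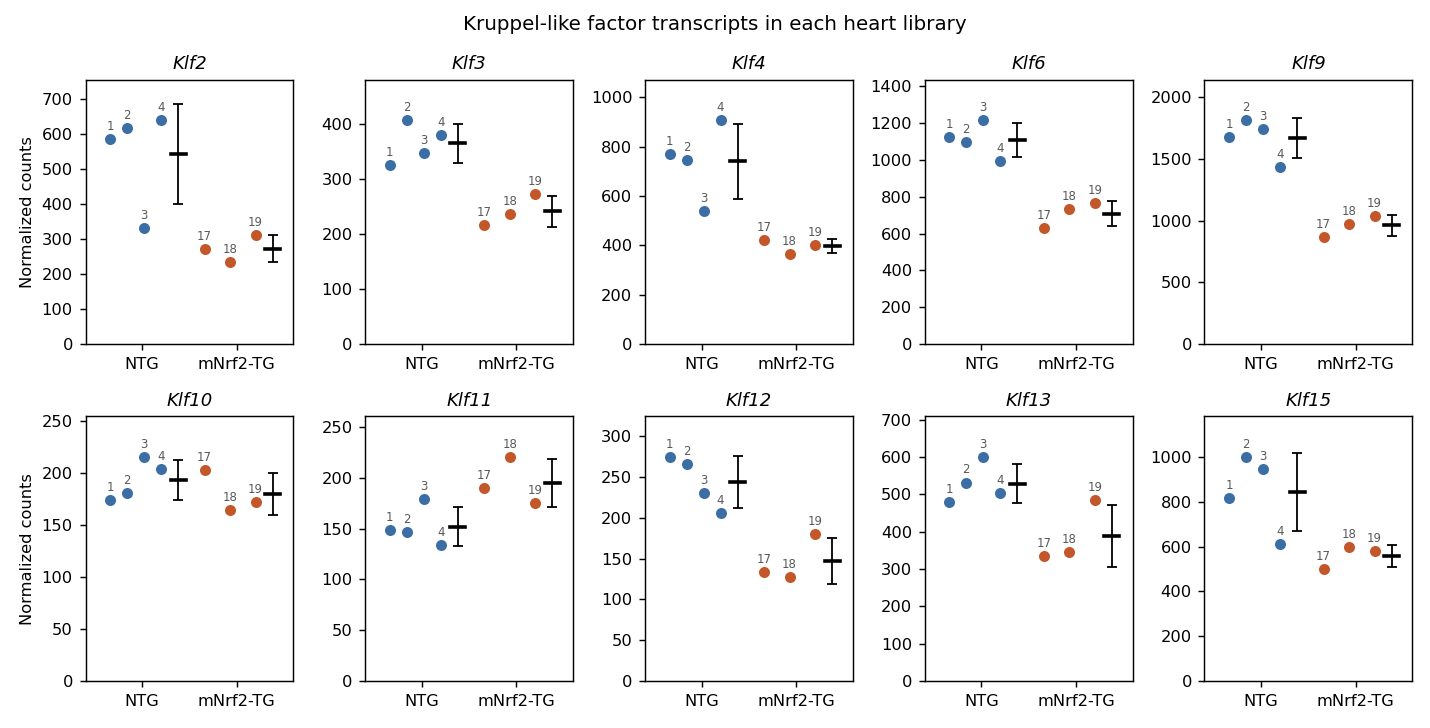
Each panel plots the TMM-normalized counts of 1 Klf gene in the 4 NTG (blue, libraries 1 to 4) and 3 mNrf2-TG (orange, libraries 17 to 19) hearts on a linear axis from 0, with black bars for the mean ± SD. The groups separate fully for Klf2, Klf3, Klf4, Klf6, Klf9, Klf12 and Klf15, whereas mNrf2-TG 19 reaches the NTG range for Klf13 and the groups overlap for Klf10 and Klf11.

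Klf3, a CtBP-dependent repressor of muscle and fat genes (Entrez gene 16599, chromosome 5, 64803388 to 64832901, plus strand), had 326, 407, 348 and 379 normalized counts in NTG and 216, 237 and 272 in mNrf2-TG. All mNrf2-TG hearts were below all NTG hearts. The mean fell from 365 ± 35.3 to 242 ± 28.3, or 1.51-fold (Log2FC -0.59, SE 0.11, edgeR adjusted p = 0.00652).

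Klf12, the other CtBP-dependent member (Entrez gene 16597, chromosome 14, 99870632 to 100284679, minus strand), had 275, 266, 231 and 206 normalized counts in NTG and 134, 128 and 180 in mNrf2-TG. The groups were apart, with mNrf2-TG 19 the nearest to NTG. The mean fell from 245 ± 31.9 to 147 ± 28.1, or 60.3% of NTG (Log2FC -0.73, SE 0.15, edgeR adjusted p = 0.00956). Both genes share part of their span with other annotated genes that have no entry in the count table, among them C230096K16Rik on the same strand as Klf3 over 1722 bases, Gm20033 opposite Klf3 over 730 bases and 4930517O19Rik antisense to Klf12 over 32198 bases. The same holds for Klf13, with E030018B13Rik on the opposite strand over 3683 bases. These overlaps are of whole gene spans, introns included. Of the 50-base stretches of exon sequence, 3.11% in Klf3 recur in Gm20033, while for Klf13 only 1 gene, Tanc2, shares any (0.147%). Whether strand was used in counting is not given in the sources used here. Where exons overlap, reads of an opposite-strand partner might therefore not be told apart from those of the Klf gene. Reads of a partner on the same strand cannot be told apart by strand at all.

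Of 10 corepressors and coactivators that work with Klf proteins, 3 were downregulated and 1 upregulated, with a median Log2FC of 0.10. Ctbp1, the partner of Klf3 and Klf12, rose from 1112 ± 28.8 to 1407 ± 74.6 (Log2FC 0.34, SE 0.066, edgeR adjusted p = 0.00809), while Ctbp2 had a Log2FC of -0.37 (edgeR adjusted p = 0.0306), a call that was kept without NTG 3 and lost without each of the other libraries (0.0553 to 0.102), with DESeq2 (0.0517) and with the library total alone (0.054). Ep300, the acetyltransferase p300, fell from 706 ± 46.8 to 533 ± 10.9 (Log2FC -0.40, SE 0.0749, edgeR adjusted p = 0.0068). Its relative Crebbp had a Log2FC of -0.38 (SE 0.0916, edgeR adjusted p = 0.0191), which lay between 0.0544 and 0.0782 without NTG 1, NTG 2, mNrf2-TG 17 or mNrf2-TG 18. The downregulated count was 1 in each of those 4 fits, DESeq2 and the library total alone gave 2 downregulated and 2 upregulated, and limma-voom, filterByExpr and robust dispersion gave 3 and 2. Of 9 ubiquitin ligases and deubiquitinases known to act on Klf proteins, 0 were called by edgeR, DESeq2 or limma-voom in either direction, and 2 had an unadjusted p under 0.05, both higher. Without NTG 3, with filterByExpr or with the library total alone, 1 of the 9 was upregulated.

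Klf10, a TGF-beta inducible repressor (Entrez gene 21847, chromosome 15, 38291463 to 38300706, minus strand), was not called. It had 174, 181, 216 and 204 normalized counts in NTG and 203, 165 and 172 in mNrf2-TG. The value of mNrf2-TG 17 lay within the NTG range, and those of mNrf2-TG 18 and 19 lay below the lowest NTG heart. The mean was 194 ± 19.6 in NTG and 180 ± 20.7 in mNrf2-TG (Log2FC -0.11, SE 0.12, edgeR adjusted p = 0.564), and the 95% interval of the Log2FC ran from -0.37 to 0.15.

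Klf11, its closest relative and likewise TGF-beta inducible (Entrez gene 194655, chromosome 12, 24651274 to 24662789, plus strand), was the member whose mean was higher in mNrf2-TG. Its normalized counts were 149, 147, 179 and 134 in NTG and 190, 221 and 175 in mNrf2-TG. NTG 3 lay above mNrf2-TG 19, so that the groups overlapped by this pair. The mean was 152 ± 19.1 in NTG and 195 ± 23.2 in mNrf2-TG (Log2FC 0.36, SE 0.12, edgeR adjusted p = 0.0759). Without NTG 3 the Log2FC was 0.45 with an edgeR adjusted p of 0.0257, and with the library total alone it was 0.39 with 0.0481. No other alternative gave an adjusted p under 0.05 for Klf11.

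Of 12 early response genes of TGF-beta and BMP signalling, 3 were downregulated and 2 upregulated. Bambi, a decoy receptor that dampens TGF-beta signalling, rose from 137 ± 10.6 to 330 ± 57.7 (Log2FC 1.27, SE 0.13, edgeR adjusted p = 0.000304). The Smad corepressor gene Skil fell from 320 ± 16.7 to 229 ± 19.9 (Log2FC -0.48, SE 0.0902, edgeR adjusted p = 0.00703), and the inhibitory Smad6 had a Log2FC of -0.66 (SE 0.13, edgeR adjusted p = 0.00875). The upregulated count was 1 without NTG 1, NTG 2, NTG 4, mNrf2-TG 17 or mNrf2-TG 18 and with DESeq2 or robust dispersion. Without NTG 3 it was 3, and the median Log2FC of the list moved from -0.18 to 0.02. Of 8 genes of thyroid hormone action, a further route to Klf9, 2 were downregulated, Hr (Log2FC -1.35, SE 0.18, edgeR adjusted p = 0.00146) and Ppargc1a (Log2FC -1.32, SE 0.31, edgeR adjusted p = 0.0184). The call of Ppargc1a, a coactivator of mitochondrial genes, was lost without mNrf2-TG 18 (0.0639), without mNrf2-TG 19 (0.0582) and with robust dispersion (0.0946).

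**Figure D3:**
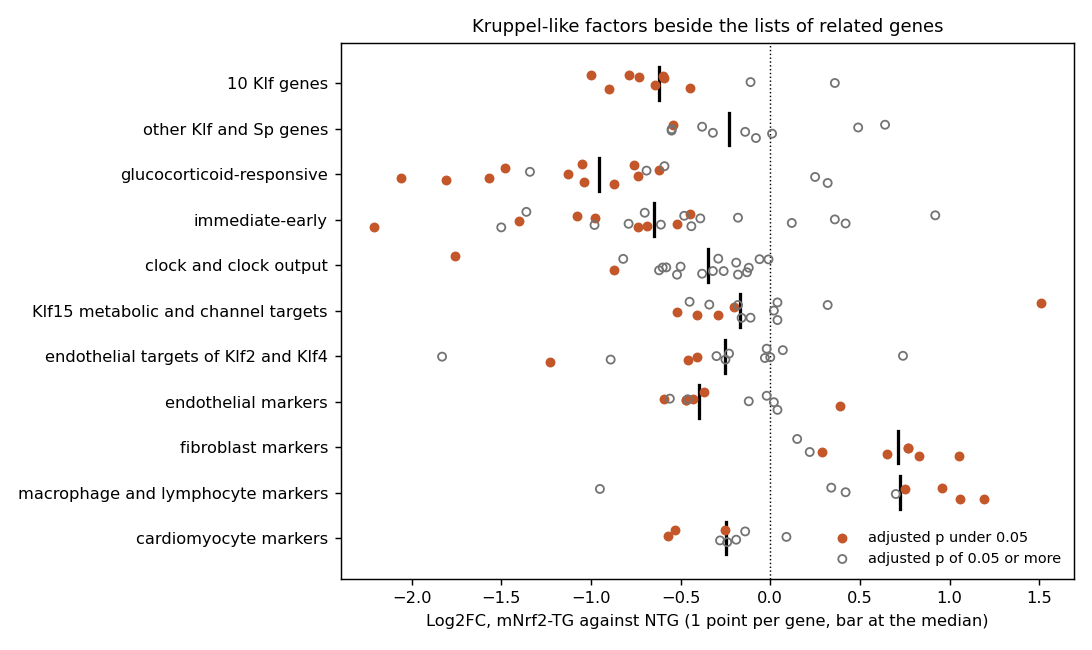
Each point is the Log2FC of 1 gene in mNrf2-TG against NTG, filled at an edgeR adjusted p under 0.05, for the 10 Klf genes and for lists of related genes and cell type markers, with a bar at each list's median. The medians are -0.62 for the Klf genes, -0.96 for glucocorticoid-responsive, -0.65 for immediate-early and -0.35 for clock genes, and 0.71 for fibroblast markers.

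To compare levels between genes, normalized counts were divided by exon length in kilobases, with the exons of all annotated transcripts of a gene merged. This length was 11.243 kb over 9 transcripts for Klf3 and 1.847 kb over 1 for Klf2. It can exceed that of the transcript present in the heart, and the order depends on it. On this scale the NTG order was Klf9 (346 ± 33.9), Klf15 (303 ± 62.1), Klf2 (294 ± 77.5), Klf6 (252 ± 21.0) and Klf4 (243 ± 49.6), and then, well below, Klf13 (70.2 ± 7.00), Klf10 (46.3 ± 4.70), Klf11 (35.1 ± 4.40), Klf12 (35 ± 4.56) and Klf3 (32.5 ± 3.14). Neighbours among the first 5 did not differ beyond their spread, nor did Klf11, Klf12 and Klf3. The step from Klf4 to Klf13 exceeded the spread of both genes in each group. In mNrf2-TG hearts the levels per kilobase were 200 ± 17.9 for Klf9, 200 ± 18.0 for Klf15, 161 ± 15.8 for Klf6, 147 ± 20.8 for Klf2 and 130 ± 9.49 for Klf4, followed by Klf13 (51.5 ± 11.1), Klf11 (45.0 ± 5.34), Klf10 (43.0 ± 4.95), Klf3 (21.5 ± 2.52) and Klf12 (21.1 ± 4.03). The same 5 genes led in both groups, and Klf11 stood above Klf12 and Klf3 in mNrf2-TG by more than their spread. Of the 50-base stretches of exon sequence, 5.35% in Klf12 and 3.48% in Klf3 recur in another gene, at most 0.263% do so in the other members, and none is shared between these genes and another Klf or Sp gene.

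The individual hearts differed in which members were low. NTG 3 had the lowest Klf2 and Klf4 of the NTG hearts, yet the highest Klf6, Klf10, Klf11 and Klf13. NTG 4 was lowest in 5 members, Klf6, Klf9, Klf11, Klf12 and Klf15, and highest in Klf2 and Klf4. Relative to the NTG mean on the log2 scale, Klf2 stood at -0.71 and Klf4 at -0.45 in NTG 3, and Klf15 stood at -0.47 in NTG 4. Among the mNrf2-TG hearts, 8, 9 and 9 of the 10 members lay below the NTG mean in libraries 17, 18 and 19. Library 19 was the highest of its group for 6 members, and library 17 was the lowest for 5. The coefficient of variation over the NTG hearts was 26.4% for Klf2, 20.5% for Klf15 and 20.4% for Klf4, and 8.34% to 13.0% for the other 7 members.

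**Figure D4:**
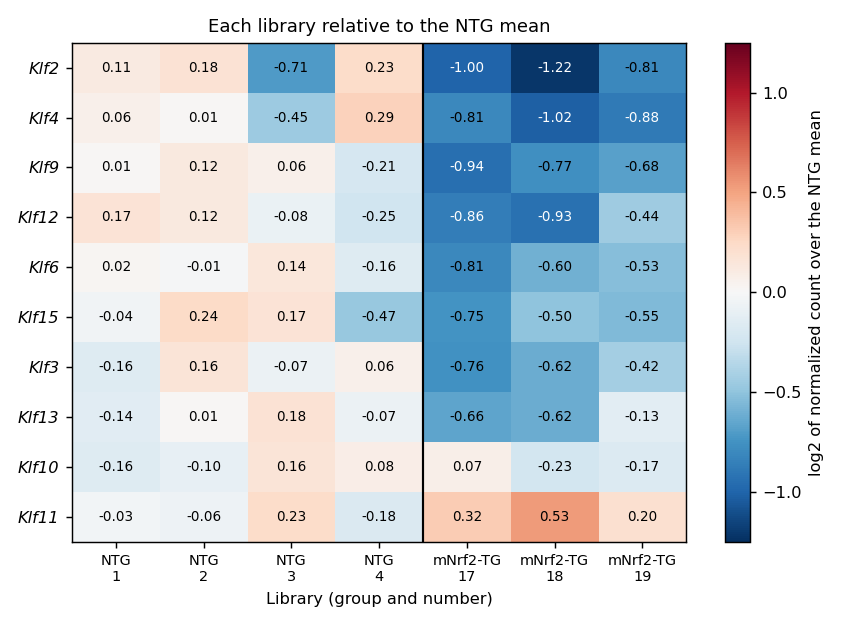
Cells give the log2 ratio of each library's normalized count to the NTG mean for the 10 Klf genes, ordered by Log2FC, with blue below and red above the mean and a line between the 4 NTG and the 3 mNrf2-TG libraries. In the mNrf2-TG columns the first 8 genes run from -1.22 (Klf2 in library 18) to -0.13 (Klf13 in library 19), Klf11 is above 0 in each, and NTG 3 is at -0.71 for Klf2.

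The rest of the family was read in the same fit to see whether other Klf and Sp genes moved with the 10. Of 17 further family genes, 10 were measured, and of these 1 was downregulated and 0 upregulated by edgeR, DESeq2 and limma-voom alike, with 2 lower and 0 higher at an unadjusted p under 0.05. The downregulated gene was Sp2, an Sp factor of cell proliferation, at 150 ± 18.8 in NTG and 103 ± 7.71 in mNrf2-TG (Log2FC -0.54, SE 0.13, edgeR adjusted p = 0.0175). Its adjusted p was 0.0613 without mNrf2-TG 17 and 0.0649 without mNrf2-TG 19. Klf7, a factor of neurons and fat tissue, had a Log2FC of -0.55 (SE 0.18, edgeR adjusted p = 0.0596, and 0.0338 without NTG 4). The widely expressed Sp1 and Sp3 stood at 502 ± 34 and 579 ± 17.5 normalized counts in NTG and at 476 ± 28.6 and 524 ± 10.1 in mNrf2-TG (Log2FC -0.08 and -0.14, edgeR adjusted p = 0.547 and 0.168). Sp4 had a Log2FC of -0.32 (edgeR adjusted p = 0.214). Klf16, a Sin3-recruiting relative of Klf9 and Klf13, had 44.9 ± 5.30 and 45.4 ± 8.23 normalized counts (Log2FC 0.01, 95% interval -0.40 to 0.42, edgeR adjusted p = 0.98). Klf5, Klf8, Klf14 and Sp6 had at most 10 counts in every library, too few to show a moderate change. The erythroid factor Klf1, Klf17, Klf18, Sp5, Sp7, Sp8 and Sp9 were not analysed here.

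Over the 7 libraries, the genes whose profile lay nearest that of Klf2, the called member with the largest decrease, were Adamts9, Cpox and Klf4. The measure was the Euclidean distance between log2 normalized counts, each centred on its mean, over 9663 genes with a mean of at least 50 and no library at 0, and the median distance was 1.53. Adamts9, a matrix protease gene, lay at 0.333, with 299, 355, 223 and 378 normalized counts in NTG and 143, 135 and 193 in mNrf2-TG. Cpox, which encodes an enzyme of haem synthesis, lay at 0.402, with 426, 466, 278 and 580 in NTG and 233, 219 and 310 in mNrf2-TG. Like Klf2, both were lowest in NTG 3 among the NTG hearts. Klf4 lay at 0.404, whereas Klf12, Klf3 and Klf9 lay at 0.864, 0.898 and 0.973, and Klf11, the farthest member, at 2.1.

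The calls of the members were repeated under 14 alternatives, 7 with another tool, scaling, filter or dispersion and 7 with a library left out. Klf2, Klf3, Klf4, Klf6, Klf9 and Klf12 were downregulated in all 14, with the highest adjusted p at 0.0479 for Klf2 and the lowest Log2FC at -1.17, also for Klf2. Klf15 was downregulated in 9 of the 14 and Klf13 in 7, while Klf11 was upregulated in 2 and Klf10 was called in none. The number of downregulated members was 6 without NTG 1, NTG 2, mNrf2-TG 17 or mNrf2-TG 18, and 7 without NTG 3, NTG 4 or mNrf2-TG 19. None of the 10 changed sign.

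**Figure D5:**
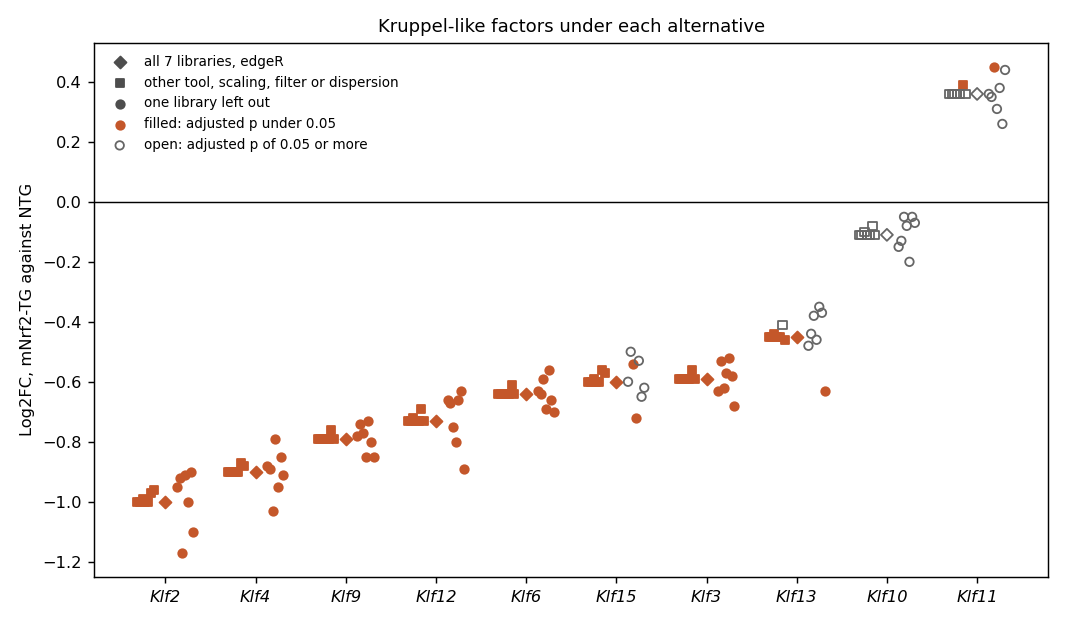
For each Klf gene, the diamond gives the Log2FC of mNrf2-TG against NTG with all 7 libraries in edgeR, squares give the 7 alternatives with another tool, scaling, filter or dispersion, and circles give the 7 fits with a library left out, filled at an adjusted p under 0.05. The points of Klf2 range from -1.17 to -0.90, those of Klf13 and Klf15 are partly open, and no gene has points on both sides of 0.

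Markers of other cell types also differed between the groups. Of 8 fibroblast markers, 6 were upregulated and 0 downregulated, with a median Log2FC of 0.71, with a sum of 9125 to 11704 normalized counts in NTG hearts and of 13097 to 14053 in transgenic hearts. The collagen gene Col1a2 had a Log2FC of 0.83 (SE 0.11, edgeR adjusted p = 0.00153). Without mNrf2-TG 19 the upregulated count was 2. Of 8 macrophage and lymphocyte markers, 4 were upregulated, with sums of 1704 to 2174 and 2692 to 3510, and the lymphocyte markers Cd3e and Cd79a had at most 10 counts in every library. Of 8 cardiomyocyte markers, 3 were downregulated, and the sum over the 8 was 636236 to 688820 in NTG hearts and 539774 to 570158 in transgenic hearts. Of the 8 smooth muscle and pericyte markers, 1 was downregulated, Rgs5 (edgeR adjusted p = 0.0165, but 0.0507 without NTG 1 and 0.0671 without mNrf2-TG 17, while 2 of the 8 were downregulated without NTG 4), and without Acta2 the other 7 summed to 2903 to 3457 in NTG hearts and 2486 to 2752 in transgenic hearts. Acta2 itself had a Log2FC of 1.37 (edgeR adjusted p = 0.163), which was 2.53 without NTG 3 (0.000132) and 1.89 with limma-voom (0.0461), and with it the sums of the 8 were 4142 to 11404 and 8083 to 11839. Among 4 red blood cell and 3 adipocyte markers 0 were called by edgeR or limma-voom, DESeq2, and edgeR without NTG 3, called 1 red blood cell marker lower, and 1 of each list was lower at an unadjusted p under 0.05, while the adipocyte genes Adipoq and Plin1 had at most 10 counts in every library. The part of these cell types in the decrease of the Klf transcripts was not tested.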

How the data were processed

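Messenger RNA of 4 NTG and 3 mNrf2-TG mouse hearts was sequenced from TruSeq stranded libraries in single reads 50 bases long. The authors aligned the reads with Novoalign 2.08.01 to chromosome and splice junction sequences from Ensembl build 67, selected 1 best alignment for a read, and deposited counts per gene without normalization. The methods name hg19 for the index and mm10 for the mapping, and the counting program and use of strand are not given in the sources used here. A deposited signal column, the authors' mean over libraries of counts divided by DESeq2 1.32.0 size factors, was used only to check the join of symbols to counts (for the members the recomputed values differed by at most 0.0939%). The authors' rlog values, fold changes and p-values were not used.

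After 1 entry was kept per Entrez gene, 14641 of 14665 entries were left, and 14637 genes with a summed count above 1 were tested in edgeR 4.0.16 (R 4.3.3) with TMM normalization, the quasi-likelihood test without covariates, and Benjamini-Hochberg adjustment over all of them. SE was obtained from the Log2FC and the F statistic, as the ratio of the former to the root of the latter. On simulated data for this comparison with 14597 genes, edgeR recovered 79% of genes changed by a Log2FC of 0.75 and 100% at 1.5, with 8.205% false calls. Libraries came from separate mice and held 6534684 to 8405857 counts, with 125 to 2014 counts for a member in a library. Alternatives were DESeq2 1.42.0 (Wald test), limma-voom (limma 3.58.1), DESeq2 size factors, the library total alone, filterByExpr, no filter, robust dispersion and leaving out each library. The ratios to endothelial transcripts and the smooth muscle sum without Acta2 were added after the data had been seen. Positions are from GENCODE M21 (GRCm38), and those in the deposited table, whose build is not given in the sources used here, were not used. Python 3.11.15 was used with pandas 2.3.3, scipy 1.17.1 (permutation tests), numpy 2.4.6 and, for plots, matplotlib 3.10.9.

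Named genes were the 10 members, the measured Klf and Sp relatives, up to 3 called genes with the smallest p of each list with textbook targets beside them, and the 3 genes nearest to the called member with the largest change in each direction (none was upregulated). The rule matches members by symbol and uses no measured value, but the members, lists and tests were chosen with earlier results of these data known, so that counts over lists describe these libraries and are no independent support. A gene of the cell type lists is not reported here and was left out of its list.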

Additional observations from a re-analysis of the deposited data

Results flagged for a closer look

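Values of the 4 NTG hearts were examined for 69 genes (the Klf genes, their measured relatives and the genes picked by the naming rule or described in the text), and in 4 of them 1 heart lay far from the others for the range of the group (Dixon's criterion), which chance gives in about 1 in 20. Klf5 had 9.28 normalized counts in NTG 3 and 0.9 to 1.15 in the other NTG hearts. Smad6 had 101 in NTG 3 and 117 to 119 in the others. Acta2 had 7947 in NTG 3 and 1026 to 1886 in the others. Fos had 77.7 in NTG 4 and 37.8 to 41.2 in the others. The count was then widened, a choice made after the data had been seen. Over all 186 listed genes with more than 10 counts in a library, 14 (7.53%) met the criterion, of which 11 were in NTG 3, 2 in NTG 2 and 1 in NTG 4. Over the 9666 genes with a mean of at least 50 normalized counts, 629 (6.51%) met it, 333 of them in NTG 3 and 75 to 139 in each other NTG heart. None of the 10 Klf genes met it, and the mNrf2-TG group, with 3 hearts, was not examined.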

How the results depend on the processing

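Of 962 values of single genes under the alternatives, 889 kept their direction and their side of the threshold, 55 lost the call, 8 gained it and 10 changed sign. Those that changed sign were Klf5 (-1.57 to 1.11 with a library left out, above 0 without NTG 3 and, at 0.03, without mNrf2-TG 19), Klf16 (-0.01 with limma-voom and -0.14 to 0.09 with a library left out, below 0 without NTG 1, NTG 2 and mNrf2-TG 17), Sp6 (-0.88 to 1.24, below 0 without mNrf2-TG 18), Bcat2 (-0.02 to 0.12, below 0 without NTG 3 or mNrf2-TG 19) and Egr1 (-0.00 to 0.79, below 0 without mNrf2-TG 17), none of them called, and the cause was not tested. The count of members downregulated was 6 to 7 with a library left out, and that of members upregulated 0 to 1, with 1 (Klf11) also under the library total alone. Over all genes, leaving out a library gave 669 to 1478 downregulated and 703 to 1471 upregulated genes, against 1278 and 1241 with all 7, the highest without NTG 3. Over the lists, the upregulated count was 16 and ranged from 12 to 25, the highest without NTG 3. The library total alone moved the median Log2FC of all genes to 0.031, and 42.8% of its calls were downregulated against 50.7%. Klf5, Klf8, Klf14 and Sp6 gave no value under filterByExpr. No paired analysis was possible because the groups share no replicate numbers (1 to 4 and 17 to 19).

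Depth limits the genes with few counts. Intervals rest on 7 hearts, and RNA of whole tissue cannot separate cell number from RNA per cell.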
